A study of Homo sapiens with 24 samples.

Results

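The genes described here build cholesterol and fatty acids, or sense and carry the sterols that are made. They were listed by their known roles, with earlier results of these data known: 18 enzymes of sterol synthesis, 6 sterol sensing and carrier genes, and 8 genes of fatty acid synthesis, 32 in all. Of these, 29 were measured (16, 6 and 7 of each kind) among 19775 genes, each read through 1 probe set. That probe set was the one with the largest average level across the 24 arrays among those listed with a single gene symbol. FDFT1, CYP51A1 and FADS1 could not be matched to such a probe set and are not analysed here.

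The cells were KARPAS-422, a human line of diffuse large B-cell lymphoma whose EZH2 genotype is given as Y641N, a change in the catalytic subunit of Polycomb repressive complex 2. Every group carries that genotype, so no group stands for cells with unmutated EZH2. Cells received an EZH2 inhibitor at 5 uM (EZH2i, a compound that the labels do not name) or DMSO as the control, and total RNA was hybridised to Affymetrix U133 Plus 2 arrays at days 1, 2, 3 and 6. That gave 8 groups of 3 arrays. The replicates are described as biological, without saying whether they were separate cultures; if they were not, the p-values measure only the spread between these samples.

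Cholesterol is assembled from acetyl-CoA through mevalonate, isoprenoid units and a long run of sterol intermediates, while fatty acid synthase lengthens acetyl-CoA into saturated chains that desaturases and elongases then modify. Both routes are switched on by SREBP transcription factors, which SREBF1 and SREBF2 encode and which stay in the endoplasmic reticulum, bound to SCAP and held there by INSIG proteins, while sterols are plentiful. When sterols run short, SCAP carries the SREBPs to the Golgi for cleavage, and the released parts enter the nucleus. Proliferating lymphoid cells draw on both routes for new membrane.

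All values are log2 expression, on which a difference of 1 is a 2-fold change. Differences are EZH2i minus DMSO of the same day, or a later day minus an earlier day of the same arm, each followed by its standard error from the model (SE, with n = 3 arrays in a group). A gene was called when its limma p was under 0.05 after Benjamini-Hochberg adjustment, which covered the 19775 genes of that comparison, and only called genes are said to have risen or fallen. In bulk RNA, fewer cells that express a gene and less RNA of it per cell cannot be told apart.

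Promoter windows show what these genes share in sequence. RefSeq windows of GRCh38.p14, from 250 bases before to 50 bases after a gene's start, were matched by symbol for 26 of the 29 genes; SQLE, ACAT2 and FASN had no entry. The letters CCAAT, which the SREBP partner NF-Y is known to bind, were sought on both strands, as were TCACNCNAC, the form of a sterol response element, and CACGTG, an E-box that SREBP-1 can also bind. Each gene was counted once, with a match in any of its windows, so that genes with more windows had more chances to match. CCAAT was found in 21 of the 26 genes (80.8%), against 41.7% of the 15384 measured genes with a window. TCACNCNAC was found in 5 (19.2%), namely FDPS, HSD17B7, SREBF2, FADS2 and ACSS2, against 3.23% of those genes. CACGTG was found in 4 (15.4%), namely LSS, SC5D, INSIG1 and SCAP, against 10.9%. Matches of the 3 patterns were counted separately and may share bases, a match is a description and not a binding site, and an absent match says nothing about a factor. The 4 windows below belong to the feedback gene INSIG1, the desaturase gene SCD, and HMGCS1 and FDPS of the mevalonate route. INSIG1 and SCD were, with SREBF1, the genes of the 29 called from day 1 to day 2 in each arm. Each of those calls was lost without some single array. Capitals mark CCAAT, or ATTGG where it lies on the other strand, and in FDPS also TCACNCNAC; each sequence runs 5′ to 3′ along its gene's strand.
INSIG1, chr7:155297628-155297927, plus strand: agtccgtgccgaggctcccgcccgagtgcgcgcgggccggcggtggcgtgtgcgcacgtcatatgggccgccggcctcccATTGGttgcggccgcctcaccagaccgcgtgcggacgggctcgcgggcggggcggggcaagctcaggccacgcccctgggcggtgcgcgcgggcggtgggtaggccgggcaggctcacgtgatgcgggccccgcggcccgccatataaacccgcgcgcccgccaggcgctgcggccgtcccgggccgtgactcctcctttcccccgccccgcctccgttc
SCD, chr10:100346983-100347282, plus strand: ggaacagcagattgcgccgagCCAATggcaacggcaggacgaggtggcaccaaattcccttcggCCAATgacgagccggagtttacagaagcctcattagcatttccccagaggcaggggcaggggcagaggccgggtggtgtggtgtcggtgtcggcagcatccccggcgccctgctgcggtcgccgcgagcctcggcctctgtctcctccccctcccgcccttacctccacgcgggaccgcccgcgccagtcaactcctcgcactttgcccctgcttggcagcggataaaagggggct
HMGCS1, chr5:43313363-43313662, minus strand: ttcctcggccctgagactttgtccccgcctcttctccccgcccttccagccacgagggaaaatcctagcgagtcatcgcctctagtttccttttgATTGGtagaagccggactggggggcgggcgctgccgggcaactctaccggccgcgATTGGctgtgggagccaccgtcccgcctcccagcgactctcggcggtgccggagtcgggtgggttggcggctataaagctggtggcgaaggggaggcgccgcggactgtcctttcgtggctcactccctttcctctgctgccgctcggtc
FDPS, chr1:155308616-155308915, plus strand: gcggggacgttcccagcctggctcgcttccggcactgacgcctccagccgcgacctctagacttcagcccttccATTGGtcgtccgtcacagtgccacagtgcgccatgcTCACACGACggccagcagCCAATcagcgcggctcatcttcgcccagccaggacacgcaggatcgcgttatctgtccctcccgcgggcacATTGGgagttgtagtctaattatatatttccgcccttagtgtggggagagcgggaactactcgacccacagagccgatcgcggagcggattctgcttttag
INSIG1 holds 1 match to CCAAT, SCD 2, HMGCS1 2 and FDPS 3, and FDPS holds 1 match to TCACNCNAC. INSIG1 also holds CACGTG, which is left in lower case. RefSeq gives HMGCS1 2 windows, of which 1 is shown, picked for the most matches to CCAAT and TCACNCNAC.

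As a check of the series, B lineage markers were bright, with means over the 24 arrays from 8.37 for CD22 to 12.72 for BCL6, against a median of 5.82 over genes. Of 8 T and NK cell markers, CD3G (10.95) and CD3D (7.12) were above that median, while the 7 myeloid markers had means of 3.46 to 5.14 and the 9 stromal, endothelial and epithelial markers 2.75 to 6.74. Arrays of 1 group correlated at 0.995 to 0.998 over genes. EZH2 itself is the inhibitor's target as a protein, so that its transcript is no check of the treatment. EZH2 read 9.70, 9.55 and 9.46 in EZH2i arrays at day 6, against 10.31, 10.18 and 10.13 in DMSO arrays, a fall of 0.64 ± 0.12 (limma, adjusted p = 8.9e-05). At days 1, 2 and 3 its differences were 0.05, -0.09 and -0.29, not called, although the day 3 difference was with the replicate number as a block (limma, adjusted p = 0.0041).

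The lipid genes kept close to DMSO for 3 days under the inhibitor and then parted from it. At day 6, 19 of the 29 were lower in EZH2i than in DMSO and 1, INSIG2, was higher. Much of the transcriptome differed by then: limma called 26.9% of all genes lower and 18.5% higher. The median difference over the 29 genes was -0.65, beside -0.11 over all genes. At day 3 limma called 3 of the 29 lower (FASN, FDPS and HMGCS1, against 7.65% of all genes) and 1 higher (STARD4, against 8.64%). At day 2 STARD4 was the 1 gene called higher (3.57% of all genes were) and 0 were called lower (0.824% of all genes), with 1 lower at an unadjusted p under 0.05. At day 1, limma called 0 of the 29 in either direction, where 0.475% of all genes were higher and 0.0101% lower, and 1 was higher at an unadjusted p under 0.05. The day 6 count was 18 without EZH2i replicate 2 or without DMSO replicate 3, each of which ended the call of LSS. With the replicate number as a block, 23 were lower at day 6, adding MVD, TM7SF2, MSMO1 and SCAP (limma, adjusted p = 0.0098, 0.0028, 0.042 and 0.026). At day 3 the block gave 5 lower, adding TM7SF2 and ACLY (adjusted p = 0.049 and 0.025), and 2 higher, adding INSIG2 (0.031). The share of all genes called with the block is not given, so block counts here and below cannot be set beside it. The day 3 count of lower genes fell to 1, FASN, without EZH2i replicate 1, DMSO replicate 2 or DMSO replicate 3.

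Averaged over their members and measured from the DMSO day 1 mean, the 3 groups of genes traced the same outline. Sterol enzymes stood at -0.15, -0.15 and -0.16 in EZH2i arrays at day 6, against 0.55, 0.61 and 0.57 in DMSO arrays. Fatty acid genes lay between -0.55 and -0.43 in EZH2i arrays, against 0.47 to 0.55 in DMSO arrays. The sensing and carrier genes were closer together, at 0.27 to 0.39 in EZH2i arrays and 0.53 to 0.68 in DMSO arrays. At day 3 the sterol enzymes averaged 0.15, 0.40 and 0.41 in EZH2i replicates 1, 2 and 3, so that replicate 1 stood below the other EZH2i arrays, against 0.41, 0.47 and 0.49 in DMSO. At day 2 replicate 1 stood below the other replicates in both arms. The sterol enzymes then averaged -0.11, 0.17 and 0.22 in EZH2i replicates 1, 2 and 3, and -0.02, 0.27 and 0.31 in DMSO.

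**Figure D1:**
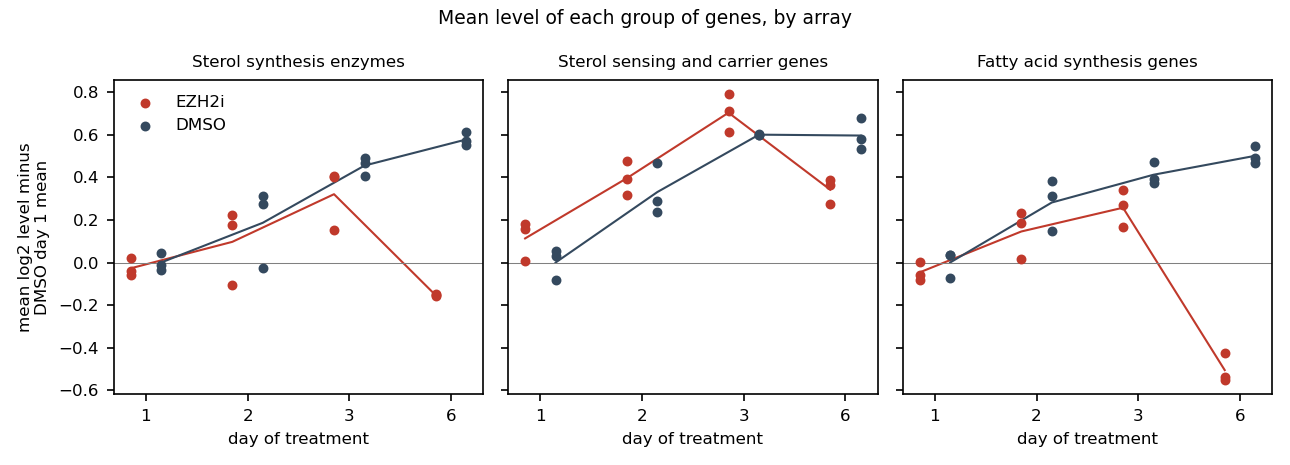
Mean log2 level of the measured sterol enzymes (16), sensing and carrier genes (6) and fatty acid genes (7) in each array by day of treatment, minus the DMSO day 1 mean; days are evenly spaced, red is EZH2i, dark blue DMSO, and lines join group means. Both arms climb to day 3, and at day 6 every EZH2i array lies below every DMSO array in each panel.

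The sterol enzymes begin with ACAT2, the cytosolic thiolase that joins acetyl-CoA units. In EZH2i arrays ACAT2 read 9.84, 9.56 and 9.81 at day 1, 9.60, 9.98 and 10.08 at day 2, 10.03, 10.38 and 10.34 at day 3, and 9.41, 9.22 and 9.29 at day 6. In DMSO arrays it read 9.84, 9.67 and 9.92 at day 1, 9.67, 10.09 and 10.19 at day 2, 10.35, 10.65 and 10.58 at day 3, and 10.62, 10.69 and 10.66 at day 6. The arms overlapped at days 1, 2 and 3 (at day 3 the highest EZH2i array passed the lowest DMSO array), and at day 6 every EZH2i array lay below every DMSO array and below every earlier EZH2i array. The day 6 difference was -1.35 ± 0.14 (limma, adjusted p = 2.9e-08), a level 2.55-fold lower than in DMSO.

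HMGCS1, the synthase that commits acetyl groups to the mevalonate route, read 9.95, 9.69 and 9.67 at day 1, 9.82, 10.08 and 10.09 at day 2, 10.24, 10.45 and 10.44 at day 3, and 9.69, 9.45 and 9.47 at day 6 in EZH2i arrays. In DMSO arrays HMGCS1 read 10.05, 9.89 and 9.73 at day 1, 10.07, 10.41 and 10.18 at day 2, 10.78, 10.79 and 10.66 at day 3, and 11.12, 10.86 and 10.65 at day 6. The DMSO arrays climbed to day 3 and stayed up, whereas the EZH2i arrays climbed to day 3 and at day 6 lay at the low end of their own day 1 values or below it. The difference was -0.37 ± 0.12 at day 3 (limma, adjusted p = 0.043) and -1.34 ± 0.12 at day 6 (limma, adjusted p = 7.2e-09). The day 3 call was lost without any 1 of the 6 arrays of that day (adjusted p 0.056 to 0.15).

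IDI1, the isomerase that makes the second isoprenoid building block, is the gene whose probe sets disagreed in direction. Through its brightest probe set IDI1 read 10.83, 10.78 and 10.57 at day 1, 10.74, 11.00 and 11.01 at day 2, 11.14, 11.34 and 11.36 at day 3, and 10.87, 10.78 and 10.72 at day 6 in EZH2i arrays. In DMSO arrays it read 10.93, 10.83 and 10.57 at day 1, 10.79, 11.18 and 11.03 at day 2, 11.39, 11.22 and 11.34 at day 3, and 11.57, 11.41 and 11.39 at day 6. At day 6 the EZH2i arrays lay below all DMSO arrays of that day, but within the span of the day 1 arrays of both arms. The difference was -0.67 ± 0.11 (limma, adjusted p = 3e-05).

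FDPS joins isoprenoid units into farnesyl pyrophosphate, the branch point to sterols, dolichol and prenylated proteins. FDPS read 11.21, 11.06 and 11.17 at day 1, 11.00, 11.34 and 11.38 at day 2, 11.25, 11.56 and 11.49 at day 3, and 10.41, 10.61 and 10.51 at day 6 in EZH2i arrays. In DMSO arrays FDPS read 11.23, 11.04 and 11.10 at day 1, 11.10, 11.48 and 11.50 at day 2, 11.60, 11.98 and 11.89 at day 3, and 11.90, 12.00 and 11.92 at day 6. Through these probe sets no other sterol enzyme had a larger difference at day 6, -1.43 ± 0.12 (limma, adjusted p = 2e-09), and the EZH2i arrays of day 6 lay below every other array. At day 3 every EZH2i array was below every DMSO array (-0.39 ± 0.12, adjusted p = 0.029); this call was lost without EZH2i replicate 1 (adjusted p = 0.14), DMSO replicate 2 (0.14) or DMSO replicate 3 (0.094).

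Late in the route, HSD17B7 reduces a ketone on the sterol ring and DHCR7 makes cholesterol itself from its last precursor. HSD17B7 read 9.37, 9.31 and 9.42 at day 1, 9.36, 9.46 and 9.63 at day 2, 9.68, 9.76 and 9.74 at day 3, and 9.43, 9.52 and 9.33 at day 6 in EZH2i arrays. In DMSO arrays HSD17B7 read 9.36, 9.34 and 9.34 at day 1, 9.39, 9.45 and 9.56 at day 2, 9.80, 9.81 and 9.90 at day 3, and 9.83, 9.91 and 9.90 at day 6. The arms met at day 1, and at day 6 the EZH2i arrays were lower in each pairing with DMSO while still near or above the day 1 level. The day 6 difference of HSD17B7 was -0.45 ± 0.07 (limma, adjusted p = 2.2e-05); its probe set is of the x_at type, which may cross-hybridise with related transcripts.

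DHCR7 read 7.37, 7.33 and 7.18 at day 1, 7.28, 7.81 and 7.74 at day 2, 7.51, 7.89 and 8.10 at day 3, and 6.99, 6.76 and 6.85 at day 6 in EZH2i arrays. In DMSO arrays DHCR7 read 7.12, 7.11 and 7.21 at day 1, 7.30, 7.90 and 7.81 at day 2, 8.0, 7.97 and 8.09 at day 3, and 8.15, 8.20 and 8.24 at day 6. Replicate 1 was low in both arms at day 2 and in EZH2i at day 3. At day 6 the EZH2i arrays fell below their day 1 values while the DMSO arrays were above all others of that arm. The difference was -1.33 ± 0.15 (limma, adjusted p = 1.4e-07), 2.51-fold lower in EZH2i.

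Of the other sterol enzymes, 5 more fell at day 6 and 5 were not called, so that 11 of 16 fell and 0 rose (limma; 0 at an unadjusted p under 0.05 as well). The median difference over the 16 was -0.59, and of all genes 26.9% were lower and 18.5% higher. EBP, a sterol isomerase, read 8.13, 8.11 and 8.22 in EZH2i arrays and 9.36, 9.75 and 9.58 in DMSO arrays at day 6 (-1.41 ± 0.16, adjusted p = 1.3e-07). SQLE, the squalene epoxidase that carries out the first oxygenation of the route, read 9.93, 9.53 and 9.61 in EZH2i arrays and 10.86, 10.70 and 10.62 in DMSO arrays (-1.03 ± 0.13, adjusted p = 8e-07). The arms of EBP and of SQLE did not overlap on day 6. NSDHL, which removes methyl groups from the sterol ring with MSMO1, fell by 0.77 ± 0.11, and PMVK, the phosphomevalonate kinase, by 0.51 ± 0.11. LSS, which closes the sterol rings, fell by 0.35 ± 0.12 (limma, adjusted p = 0.021), a call lost without EZH2i replicate 2 (adjusted p = 0.053) or DMSO replicate 3 (0.062).

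The 5 sterol enzymes without a call at day 6 lie in the same route. MVD, the mevalonate pyrophosphate decarboxylase, differed by -0.41 ± 0.20 and TM7SF2, a sterol reductase, by -0.36 ± 0.18 (limma, adjusted p = 0.1 for each); these are the largest standard errors among the 29 genes, and MVD was also dim, at 5.03 to 5.96 over all arrays. MSMO1, a methyl sterol oxidase, differed by -0.27 ± 0.13 (adjusted p = 0.11) although its EZH2i arrays of 11.34, 11.26 and 11.16 all lay below its DMSO arrays of 11.60, 11.62 and 11.35. The kinase gene MVK differed by -0.12 ± 0.07 (adjusted p = 0.19) through its brightest probe set. SC5D, a sterol desaturase, read 8.57, 8.39 and 8.21 in EZH2i arrays and 8.37, 8.18 and 8.29 in DMSO arrays, which overlap (0.11 ± 0.10, adjusted p = 0.38).

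**Figure D2:**
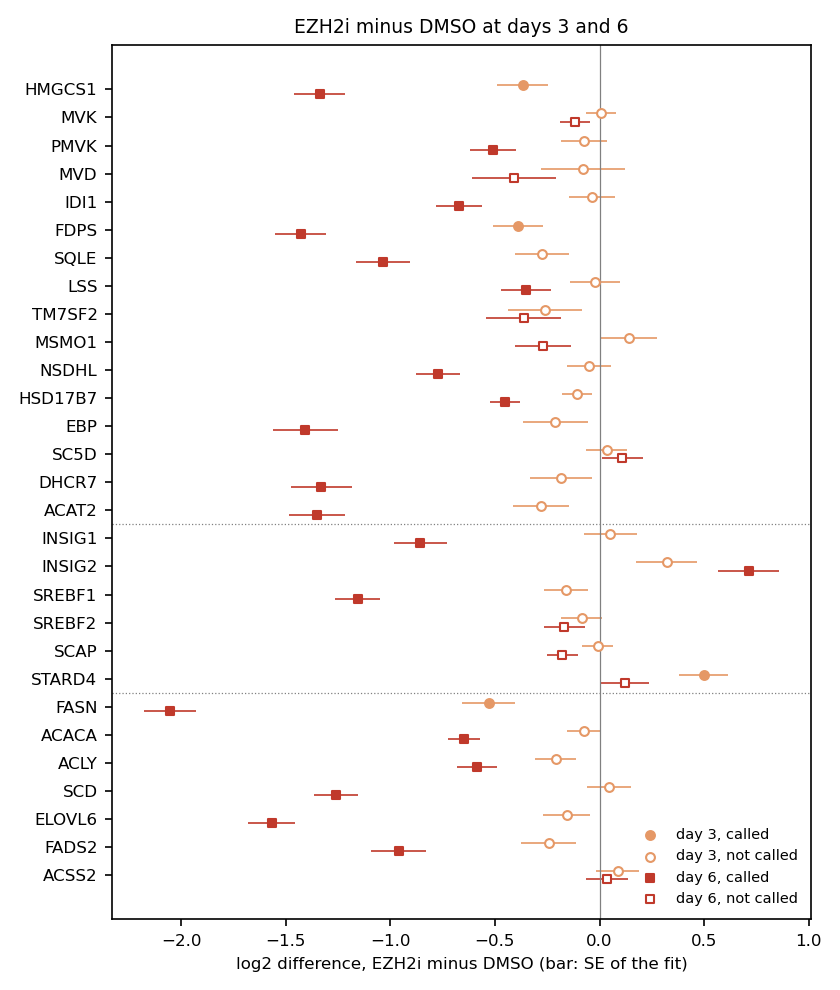
Difference in log2 expression, EZH2i minus DMSO, of each of the 29 genes at day 6 (squares) and day 3 (circles), with the standard error of the fit as the bar; filled symbols are called by limma. Genes run down the page in route order as sterol enzymes, sensing and carrier genes, and fatty acid genes, and 19 squares are filled on the left of zero and 1, INSIG2, on the right.

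Among the sensing genes, INSIG1 and SREBF1 fell at day 6 and INSIG2 rose. INSIG1, which retains the SREBP carrier when sterols are plentiful and is itself an SREBP target, read 9.86, 9.54 and 9.59 at day 1, 10.05, 10.34 and 10.38 at day 2, 10.73, 10.99 and 11.03 at day 3, and 10.09, 9.82 and 10.10 at day 6 in EZH2i arrays. In DMSO arrays INSIG1 read 9.55, 9.46 and 9.23 at day 1, 10.03, 10.47 and 10.18 at day 2, 10.83, 10.95 and 10.82 at day 3, and 10.99, 10.81 and 10.78 at day 6. The arms ran together to day 3, with each day above the one before, and at day 6 the EZH2i arrays were far below those of day 3, within the combined span of days 1 and 2 of that arm. The day 6 difference was -0.86 ± 0.12 (limma, adjusted p = 6.5e-06), 1.81-fold lower in EZH2i.

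SREBF1, which encodes SREBP-1, the regulator most tied to fatty acid genes, read 6.58, 6.88 and 6.45 at day 1, 6.96, 7.14 and 7.14 at day 2, 7.41, 7.39 and 7.39 at day 3, and 6.59, 6.40 and 6.61 at day 6 in EZH2i arrays. In DMSO arrays SREBF1 read 6.50, 6.80 and 6.48 at day 1, 7.14, 7.45 and 7.11 at day 2, 7.57, 7.58 and 7.51 at day 3, and 7.69, 7.67 and 7.71 at day 6. Day 6 values with the inhibitor were near those of day 1, while those in DMSO were the highest of all. The difference was -1.16 ± 0.11 (limma, adjusted p = 7.3e-09). SREBF2, which encodes the regulator most tied to sterol genes, read 7.49, 7.63 and 7.56 in EZH2i arrays and 7.67, 7.74 and 7.78 in DMSO arrays at day 6, apart by -0.17 ± 0.10 and not called (adjusted p = 0.16).

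STARD4, a carrier of cholesterol between membranes, ran ahead of DMSO early. STARD4 read 8.26, 8.20 and 8.12 at day 1, 8.28, 8.40 and 8.51 at day 2, 8.71, 8.87 and 9.07 at day 3, and 8.73, 8.48 and 8.70 at day 6 in EZH2i arrays. In DMSO arrays STARD4 read 7.94, 7.83 and 7.72 at day 1, 7.80, 8.19 and 7.95 at day 2, 8.33, 8.30 and 8.53 at day 3, and 8.73, 8.32 and 8.49 at day 6. Every EZH2i array was above every DMSO array at days 1, 2 and 3, and the arms overlapped at day 6. The difference was 0.36 ± 0.12 at day 1 (limma, adjusted p = 0.29), 0.42 ± 0.12 at day 2 (adjusted p = 0.043), 0.50 ± 0.12 at day 3 (adjusted p = 0.0041) and 0.12 ± 0.12 at day 6 (adjusted p = 0.41). The day 2 call was lost without EZH2i replicate 2 or 3 (adjusted p = 0.12 and 0.17) and without DMSO replicate 1 or 3 (0.2 and 0.12).

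INSIG2, the second retention factor, which unlike INSIG1 is not known as an SREBP target, read 7.95, 7.77 and 7.65 in EZH2i arrays at day 6, against 7.35, 6.94 and 6.94 in DMSO arrays. The groups did not overlap, and INSIG2 rose by 0.71 ± 0.15 (limma, adjusted p = 0.00035). SCAP, the SREBP carrier, differed by -0.18 ± 0.08 at day 6 and was not called (adjusted p = 0.06). Of the 6 sensing and carrier genes 2 fell and 1 rose, with a median of -0.17. Of all genes 26.9% were lower and 18.5% higher at day 6, so these counts are near the share of all genes.

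Of the 7 fatty acid genes, limma called 6 lower at day 6 and 0 higher, where 26.9% of all genes were lower and 18.5% higher. At an unadjusted p under 0.05 also 0 were higher, and the median difference was -0.96. FASN, the fatty acid synthase, read 7.73, 7.73 and 7.75 at day 1, 7.80, 8.21 and 8.04 at day 2, 7.76, 8.12 and 8.04 at day 3, and 6.78, 6.73 and 6.91 at day 6 in EZH2i arrays. In DMSO arrays FASN read 7.83, 7.92 and 8.04 at day 1, 8.02, 8.43 and 8.22 at day 2, 8.34, 8.49 and 8.68 at day 3, and 8.79, 8.71 and 9.09 at day 6. The EZH2i arrays stayed near 8 to day 3 and dropped below 7 at day 6, where no DMSO array of any day went. FASN fell by 2.05 ± 0.13 at day 6 (limma, adjusted p = 1.8e-11), 4.16-fold below DMSO and, through these probe sets, more than any other of the 29 genes. It had already fallen by 0.53 ± 0.13 at day 3 (limma, adjusted p = 0.0044), a call kept without each array of that day.

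SCD, which puts the first double bond into saturated chains, read 10.81, 10.97 and 10.73 at day 1, 11.18, 11.40 and 11.37 at day 2, 11.63, 11.87 and 11.90 at day 3, and 10.72, 10.37 and 10.58 at day 6 in EZH2i arrays. In DMSO arrays SCD read 10.69, 10.78 and 10.53 at day 1, 11.16, 11.52 and 11.26 at day 2, 11.71, 11.82 and 11.73 at day 3, and 11.86, 11.82 and 11.77 at day 6. The arms overlapped through day 3, where both were about 1 above their day 1 means. By day 6 the EZH2i arrays were below their day 1 values and the DMSO arrays had stayed up, a difference of -1.26 ± 0.11 (limma, adjusted p = 2.1e-09).

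ACACA, the carboxylase that makes malonyl-CoA, read 8.77, 8.94 and 8.85 at day 1, 9.02, 9.12 and 9.04 at day 2, 9.06, 9.19 and 9.24 at day 3, and 8.70, 8.70 and 8.68 at day 6 in EZH2i arrays. In DMSO arrays ACACA read 8.77, 9.03 and 8.94 at day 1, 9.12, 9.32 and 9.21 at day 2, 9.34, 9.15 and 9.23 at day 3, and 9.37, 9.30 and 9.35 at day 6. At day 6 the EZH2i arrays were tightly grouped below every other array. The difference was -0.65 ± 0.08 (limma, adjusted p = 4.4e-07).

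ELOVL6 lengthens palmitate, and ACLY supplies cytosolic acetyl-CoA from citrate; both were called in 4 of 17 comparisons, and ELOVL6 is given in every array because its day 6 difference is larger. ELOVL6 read 10.31, 10.32 and 10.31 at day 1, 10.52, 10.61 and 10.41 at day 2, 10.55, 10.55 and 10.48 at day 3, and 9.56, 9.02 and 8.91 at day 6 in EZH2i arrays. In DMSO arrays ELOVL6 read 10.21, 10.38 and 10.25 at day 1, 10.61, 10.71 and 10.55 at day 2, 10.78, 10.65 and 10.62 at day 3, and 10.71, 10.84 and 10.64 at day 6. The arms overlapped at days 1 and 2, the EZH2i arrays were slightly below the DMSO arrays at day 3, and at day 6 the EZH2i arrays were far below every other array, with replicate 1 the highest of the 3. ELOVL6 fell by 1.57 ± 0.11 (limma, adjusted p = 2e-10), 2.97-fold.

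ACLY read 11.49, 11.39 and 11.58 in EZH2i arrays and 12.06, 12.04 and 12.11 in DMSO arrays at day 6 (-0.59 ± 0.10, limma, adjusted p = 3.2e-05). FADS2, a desaturase of polyunsaturated chains, read 6.32, 6.62 and 6.26 in EZH2i arrays and 7.31, 7.32 and 7.46 in DMSO arrays (-0.96 ± 0.13, adjusted p = 2.4e-06). In both genes the arms were apart at day 6. ACSS2, which makes acetyl-CoA from acetate, was dim, at 5.63 to 6.17 over all arrays, and was not called at day 6 (0.04 ± 0.10, adjusted p = 0.8).

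**Figure D3:**
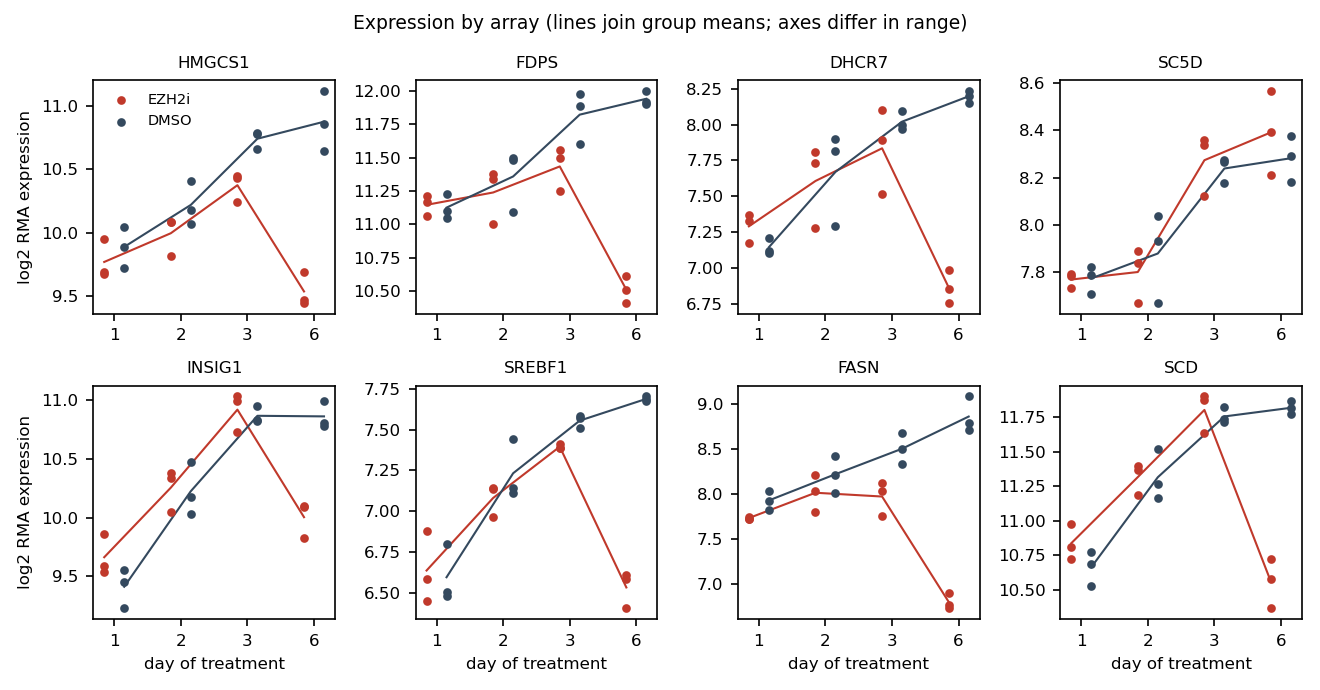
Log2 expression of 8 genes in each of the 24 arrays by day of treatment (red EZH2i, dark blue DMSO; lines join group means; days are evenly spaced and each panel has its own vertical range). In 7 panels the EZH2i arrays lie below the DMSO arrays at day 6, and in the SC5D panel the arms overlap.

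A difference from DMSO can come from either arm, so each arm was also compared with its own earlier days; these comparisons share arrays with those above. In DMSO the lipid genes rose as the culture went on. From day 1 to day 6 in DMSO 15 of the 29 rose, where limma called 0.238% of all genes higher, and 0 fell, where it called 0.0506% lower (0 fell at an unadjusted p under 0.05). That makes 15 of the 47 genes of the whole table that rose (31.9%). INSIG1 rose by 1.45 ± 0.12, SCD by 1.15 ± 0.11, SREBF1 by 1.09 ± 0.11 and DHCR7 by 1.05 ± 0.15 (limma, adjusted p = 2.3e-06, 3.7e-06, 6.1e-06 and 0.00086). HMGCS1 rose by 0.99 ± 0.12 and FASN by 0.93 ± 0.13. The sterol enzymes supplied 9 of the 15, the sensing genes 3 and the fatty acid genes 3. The other genes that rose were ACAT2, FDPS, MSMO1, LSS, IDI1, HSD17B7, SC5D, STARD4 and ACACA, by 0.43 to 0.85. Of the 15, 11 were called without each array in turn. The calls of ACACA, MSMO1, SC5D and STARD4 were lost without 1 or another of DMSO day 1 replicates 1, 2 and 3 or DMSO day 6 replicates 1, 2 and 3. Among single arrays left out, the count was lowest, 11, without DMSO day 6 replicate 1. With a replicate number left out of all groups, the count was as low as 3.

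Most of that DMSO change was in place by day 3. Between day 2 and day 1 in DMSO, INSIG1 (0.81 ± 0.12), SCD (0.65 ± 0.11) and SREBF1 (0.64 ± 0.11) rose (limma, adjusted p = 0.018, 0.02 and 0.02). They are 3 of the 29 and all of the genes called higher in that comparison (0.0152% of the table), but none of the 3 calls held without DMSO day 1 replicate 1 or 3 or without DMSO day 2 replicate 2 or 3 (adjusted p 0.061 to 0.26). SREBF1 was also lost without DMSO day 2 replicate 1 (0.081). Between day 3 and day 1 in DMSO 14 rose, against 0.379% of all genes, or 14 of 75. INSIG1 and SCD had by then the day 6 level, 1.45 ± 0.12 and 1.09 ± 0.11 above day 1. This count was 9, 7 and 8 without DMSO day 1 replicates 1, 2 and 3 and 6 and 5 without DMSO day 3 replicates 2 and 3, and 5 of the 14 (HMGCS1, HSD17B7, INSIG1, SREBF1 and SCD) were called without each array. The replicate block gave 18, adding EBP, SREBF2, ACACA and FADS2 (adjusted p 0.0084 to 0.049). No gene of the table was called higher between days 3 and 2 or between days 6 and 3 in DMSO (0% each, limma); at an unadjusted p under 0.05, 14 of the 29 were higher at day 3 than at day 2 and 1 at day 6 than at day 3.

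In DMSO, limma called 4 of 16 genes of the amino acid stress response, a separate list, higher at day 3 than at day 1 (0.379% of all genes were) and 0 higher at day 6 (0.238% of all genes), with 12 and 7 at an unadjusted p under 0.05. From the DMSO day 1 mean the 16 averaged -0.02, 1.49 and 1.11 in DMSO day 3 replicates 1, 2 and 3 and 0.28 to 0.64 in DMSO at day 6. The sterol enzymes stood at 0.41, 0.47 and 0.49 in those same day 3 arrays. In EZH2i arrays the stress genes averaged -0.14 to -0.06 at day 3 and -0.21 to -0.04 at day 6, and against DMSO 12 of the 16 were lower at day 3 (7.65% of all genes were) and 7 at day 6 (26.9% of all genes); their part in the lipid gene differences was not tested.

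The inhibitor arm also climbed for 3 days, though not gene for gene as DMSO did. INSIG1 (0.59 ± 0.12), SCD (0.48 ± 0.11) and SREBF1 (0.45 ± 0.11), the genes called in DMSO, also rose from day 1 to day 2 with EZH2i (3 of 29, against 0.764% of all genes). Each of these calls was lost without some single array: without EZH2i day 1 replicate 3 or day 2 replicate 2 or 3 all 3 were lost (adjusted p 0.067 to 0.2), and others were without day 1 replicate 1 or 2 or day 2 replicate 1 (0.051 to 0.23). By day 3, 14 of the 29 were above day 1 in EZH2i, against 7.52% of all genes, led by INSIG1 (1.25 ± 0.12), SCD (0.96 ± 0.11), MSMO1 (0.76 ± 0.13) and SREBF1 (0.76 ± 0.11). Of these, 13 are also among the genes that rose in DMSO by day 6. FASN and FDPS, which rose by day 3 in DMSO (0.57 ± 0.13 and 0.70 ± 0.12), were not called in EZH2i. Their EZH2i differences were 0.24 ± 0.13 and 0.29 ± 0.12 (limma, adjusted p = 0.22 and 0.11). SREBF2 and ACACA were called by day 3 in EZH2i and not in DMSO (limma, adjusted p = 0.081 and 0.07 in DMSO). The calls of ACAT2, DHCR7 and SREBF2 were lost without 1 array, which was EZH2i day 1 replicate 2 or 3 or EZH2i day 3 replicate 2 or 3 (adjusted p 0.052 to 0.098). From day 2 to day 3, INSIG1, SC5D, SCD and STARD4 rose (4 of 29, against 1.24% of all genes) by 0.47 to 0.66; without EZH2i day 2 replicate 1 or 2 or day 3 replicate 2 or 3 at least 3 of the 4 calls were lost, and without day 2 replicate 3 that of STARD4. With the replicate block 7 rose from day 2 to day 3, adding LSS, MSMO1 and HSD17B7 (adjusted p 0.012 to 0.034).

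Between day 3 and day 6 the inhibitor arm turned. Here 19 of the 29 fell, against 10.6% of all genes, and 0 rose, against 10.1% (limma; 0 rose at an unadjusted p under 0.05). ELOVL6 fell by 1.36 ± 0.11, SCD by 1.24 ± 0.11, FASN by 1.17 ± 0.13, DHCR7 by 0.97 ± 0.15, EBP by 0.95 ± 0.16 and ACAT2 by 0.94 ± 0.14. FDPS fell by 0.92 ± 0.12, INSIG1 by 0.91 ± 0.12, SREBF1 by 0.86 ± 0.11 and HMGCS1 by 0.84 ± 0.12. The median over the 29 was -0.47, beside -0.04 over all genes. The call of SCAP was lost without any 1 of EZH2i day 3 replicates 1 and 3 and day 6 replicates 1, 2 and 3 (adjusted p 0.064 to 0.23), and the other 18 were called without each array. The replicate block added MSMO1 (adjusted p = 0.04). Of the 14 genes that rose with EZH2i by day 3, 9 fell again by day 6: HMGCS1, IDI1, HSD17B7, DHCR7, ACAT2, INSIG1, SREBF1, ACACA and SCD. LSS, MSMO1, SC5D, SREBF2 and STARD4 rose by day 3 and were not called between days 3 and 6, with differences of -0.30 to 0.12.

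Set against its own day 1, the inhibitor arm at day 6 was mixed. Of the 29 genes 11 were below day 1 (24% of all genes were) and 7 above (16.9% of all genes). ELOVL6 (-1.15 ± 0.11), FASN (-0.93 ± 0.13), EBP (-0.70 ± 0.16), FDPS (-0.64 ± 0.12) and PMVK (-0.62 ± 0.11) fell furthest, and SC5D (0.62 ± 0.10), INSIG2 (0.47 ± 0.15) and MSMO1 (0.46 ± 0.13) rose most. The fatty acid genes gave 4 of the 11 and 0 of the 7 (limma; 0 at an unadjusted p under 0.05). HMGCS1, IDI1, HSD17B7, SREBF1 and ACACA were not called (differences of -0.23 to 0.06), although each had fallen since day 3. The count below day 1 was 7 without EZH2i day 1 replicate 1 or EZH2i day 6 replicate 2, and 6 genes (PMVK, FDPS, EBP, FASN, ACLY and ELOVL6) were called without each array. The count above day 1 was 4 without EZH2i day 1 replicate 3; the calls of INSIG1, INSIG2 and MSMO1 were each lost without at least 1 array.

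**Figure D4:**
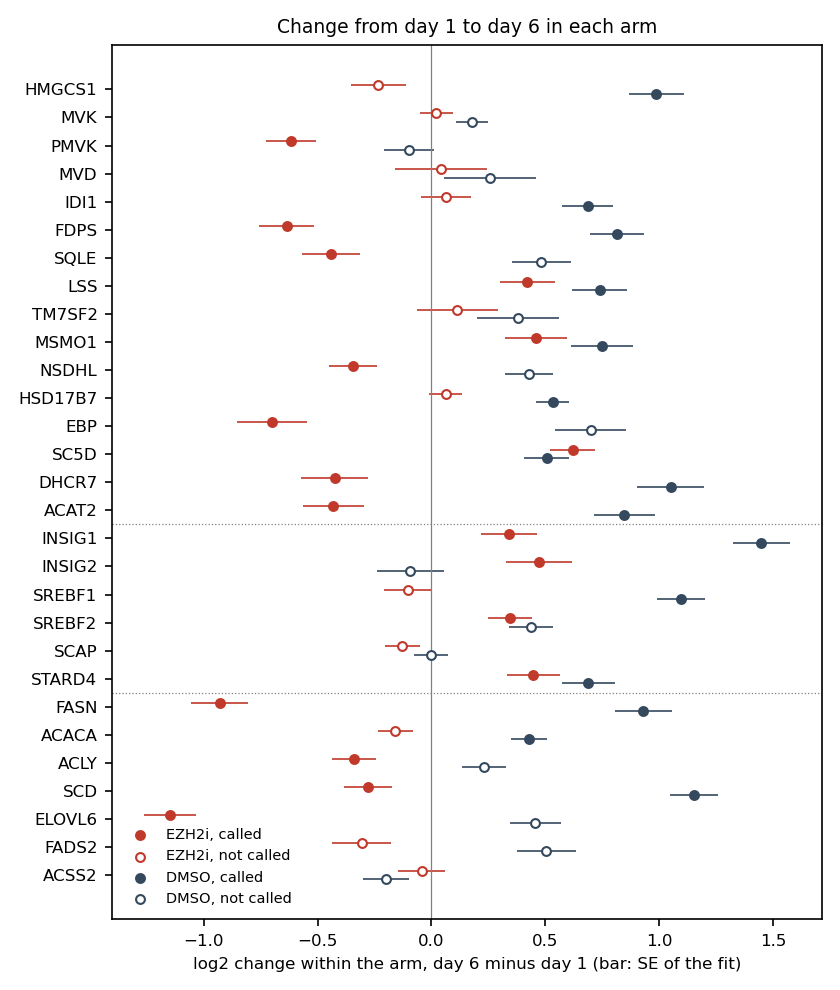
Change in log2 expression between day 1 and day 6 within the EZH2i arm (red) and within the DMSO arm (dark blue) for each gene, with the standard error of the fit as the bar and filled symbols for called changes. In DMSO 15 genes are called on the right of zero and 0 on the left, whereas in EZH2i 11 are called on the left and 7 on the right.

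Whether the effect of the inhibitor differed between days was tested as an interaction, the day 6 difference minus the day 1 difference. It was lower for 18 of the 29, against 14.4% of all genes, and higher for INSIG2 alone of them, against 12.3%. FASN (-1.86 ± 0.18), ELOVL6 (-1.60 ± 0.16), DHCR7 (-1.47 ± 0.21), FDPS (-1.45 ± 0.17) and SCD (-1.43 ± 0.15) had the most negative interactions (limma, adjusted p 7.7e-08 to 1.1e-05). For the day 3 difference minus the day 1 difference, limma called 0 of the 29 lower, against 1.01% of all genes, and 1 (FDPS, -0.41 ± 0.17) at an unadjusted p under 0.05. The call of PMVK at day 6 was lost without DMSO replicate 2 of day 1 or of day 6 (adjusted p = 0.052 and 0.051), and that of IDI1 with its probe sets averaged (-0.175, adjusted p = 0.21). That of INSIG2 was lost without EZH2i day 1 replicate 3, EZH2i day 6 replicates 1 or 2, DMSO day 1 replicates 1 or 2, or DMSO day 6 replicates 2 or 3 (adjusted p 0.059 to 0.15).

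The sizes of the DMSO change and of the late change in the inhibitor arm were set side by side gene by gene. Those 2 changes, DMSO day 6 minus day 1 and EZH2i day 6 minus day 3, share no array. Of the 15 genes that rose in DMSO 11 also fell late with EZH2i, beside 19 of all 29, a similar share. These 11 of 15 and 11 of 19 are HMGCS1, IDI1, FDPS, HSD17B7, DHCR7, ACAT2, INSIG1, SREBF1, FASN, ACACA and SCD. Over the 29 genes the 2 changes had a Pearson correlation of -0.66 and a Spearman correlation of -0.65, beside 0.03 and 0.03 over all 19775 genes. These describe genes read by the same probe sets on the same arrays, and genes are not independent replicates. Through its brightest probe set ELOVL6 departed from that order, with a DMSO change of 0.46 ± 0.11 that was not called and a late fall of 1.36 in EZH2i. That depends on the probe set. Its second gave a DMSO change of 0.54 ± 0.14, not called, but its dimmest (mean 6.52) rose by 1.14 ± 0.15 (limma over all probe sets, adjusted p = 0.00059). LSS and MSMO1 departed too, with rises of 0.74 and 0.75 in DMSO and late EZH2i differences of -0.17 and -0.30.

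**Figure D5:**
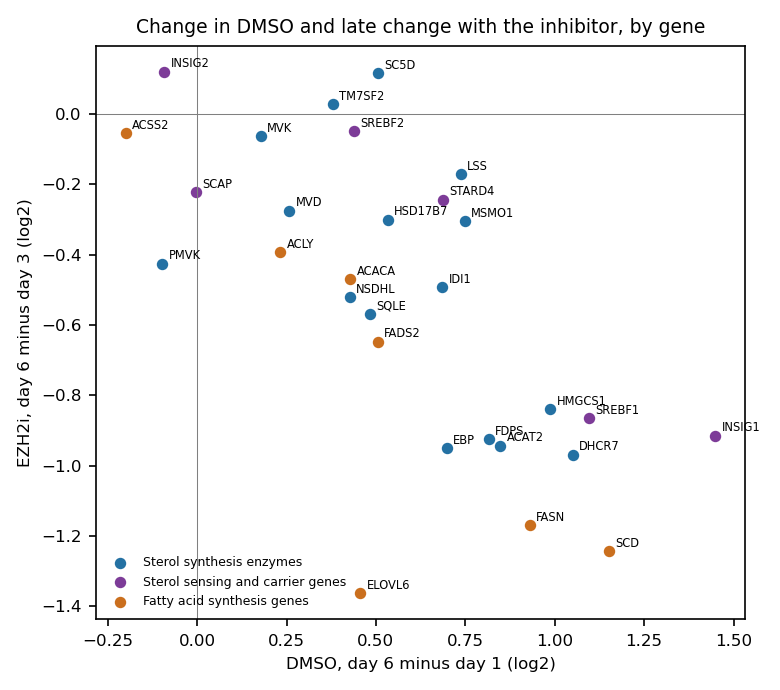
Log2 change of each of the 29 genes in DMSO between day 1 and day 6 (horizontal) and in EZH2i between day 3 and day 6 (vertical), coloured by group of genes. Genes far to the right, such as INSIG1, SCD and SREBF1, lie low on the vertical axis, while ELOVL6 lies lowest with a middling DMSO change (Pearson correlation -0.66).

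Other probe sets of the same genes were read as a check on the choice of 1 per gene. The 29 genes have 62 probe sets, and 18 genes have more than 1. In a fit over all probe sets 47 of the 62 were lower in EZH2i at day 6 and 2 were higher, and in 12 of the 18 genes all probe sets were lower. The share of all probe sets called in that fit is not given, so these counts and those closing this paragraph lack that background. The dimmer probe sets of SCD gave larger differences than the brightest, -2.02, -2.63 and -2.34 beside -1.26, as did those of INSIG1, -1.16 and -1.88 beside -0.86. The second probe set of HMGCS1 gave -2.10 beside -1.34. FASN's second probe set, of the x_at type and dimmer (mean 6.33), gave -0.29 ± 0.11 beside -2.05, and that of SREBF1 -0.39 ± 0.11 beside -1.16. IDI1 split: its brightest pair gave -0.67 and -0.68 and its next 0.21 (not called), all of the x_at type. Its dimmest, with a mean of 6.68 and not of that type, rose by 0.34 ± 0.10 (limma, adjusted p = 0.0092). MVK, not called through its brightest probe set, was lower through its other 3, by 0.45, 0.57 and 0.30, and SREBF2 through its other 2, by 0.34 each. With the probe sets of a gene averaged, the day 6 difference was -0.20 for IDI1 (limma, adjusted p = 0.021), -1.17 for FASN, -2.06 for SCD, then the larger of these, and -1.30 for INSIG1. From day 1 to day 6 in DMSO, averaging ended the calls of IDI1, LSS and SC5D (adjusted p = 0.075, 0.059 and 0.42). The averaged DMSO rises were 0.63 for SREBF1 and 0.43 for FASN, both still called. Their second probe sets gave 0.16 and -0.08 there, neither called. ELOVL6, SQLE and SREBF2, not called in DMSO through their brightest probe set, were higher through at least 1 other. From day 1 to day 6 in DMSO 27 of the 62 probe sets were higher and 0 lower, and from day 3 to day 6 in EZH2i 35 were lower and 0 higher.

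Neighbouring parts of lipid metabolism were read from lists that do not share genes with the 29. Among 11 genes of SREBP processing and sterol-regulated degradation 4 were lower and 2 higher at day 6. TMEM97, a sterol-binding membrane protein, fell by 1.40 ± 0.10 and RNF145, a ubiquitin ligase that senses sterols, by 1.24 ± 0.12, while UFD1 and ERLIN1, which serve the removal of proteins from the endoplasmic reticulum, fell by 0.53 ± 0.09 and 0.46 ± 0.11. The 2 higher genes, named after their values were seen, were ERLIN2 and MBTPS1, the protease that first cuts the SREBPs, which rose by 0.35 ± 0.07. Among 12 genes of isoprenoid side branches 5 were lower and 2 higher: PDSS1, which makes the tail of coenzyme Q, fell by 1.09 ± 0.08, NUS1 of dolichol synthesis fell by 0.90 ± 0.18, and FNTB, a farnesyltransferase subunit, rose by 1.06 ± 0.13. Among 19 genes of fatty acid elongation, activation and supply 3 were lower and 3 higher. SCD5, a paralog of SCD, rose by 2.04 ± 0.20 and FADS3, a paralog of FADS2, by 0.78 ± 0.11, opposite to the genes they resemble, and TECR of elongation fell by 0.78 ± 0.17 (limma, adjusted p = 2.4e-08, 6.5e-06 and 0.00062). These counts stand beside 26.9% of all genes lower and 18.5% higher.

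Of 14 genes of cholesterol transport and esterification, 5 were lower and 2 higher at day 6. These and the other day 6 counts below stand beside 26.9% of all genes lower and 18.5% higher. NPC2 and LIPA, which release cholesterol from lysosomes, rose by 2.09 ± 0.14 and 1.51 ± 0.12, and were already higher at day 3 by 0.98 ± 0.14 and 1.01 ± 0.12. SCARB1, a receptor for lipoproteins, fell by 1.29 ± 0.14, and SOAT1, which esterifies cholesterol, by 0.44 ± 0.13. Of 6 targets of the oxysterol receptor LXR, 2 were higher and 2 lower at day 6. ABCA1, which exports cholesterol, was higher by 1.99 ± 0.26 at day 3 and by 2.95 ± 0.26 at day 6 (limma, adjusted p = 1e-05 and 4.1e-09), and LPCAT3 and NR1H3 fell by 0.64 ± 0.08 and 0.66 ± 0.15. SREBF1, which is an LXR target too, is not counted in that list. From day 1 to day 6 in DMSO, limma called 0 of 11, 0 of 12, 0 of 19 and 0 of 14 genes in the first 4 lists, with 1, 2, 1 and 1 higher and 1, 2, 0 and 0 lower at an unadjusted p under 0.05, and 1 of the 6 LXR targets, MYLIP, which rose by 0.95 ± 0.13. Of all genes, limma called 0.238% higher and 0.0506% lower in that comparison. Of the B lineage markers 4 of 8 were higher in EZH2i at day 6 (CD79B by 1.10 ± 0.11, MME by 0.83 ± 0.08), and 0 were lower at an adjusted or unadjusted p under 0.05 (limma). Of the myeloid markers, which were near the low end of the arrays' range, 4 of 7 were lower, by 0.23 to 0.42. Of the T and NK cell markers 1 of 8, CD3D, was lower, by 0.58 ± 0.11 (limma, adjusted p = 0.00018), and of the stromal, endothelial and epithelial markers 2 of 9 were lower (EPCAM and PDGFRB) and 1 higher (KRT18), by 0.20 to 0.37. The part of these markers in the lipid gene differences was not tested.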

How the data were processed

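The authors deposited log2 expression values per probe set for 24 arrays; per the submitters' processing notes they were made by RMA, a method that corrects background, quantile-normalizes arrays and summarises each probe set, with R 2.10.1. The log base is not given in the sources used here and was taken from the range of 1.72 to 14.3; array medians were 4.96 to 5.03, and scanner values were not used. Of 54613 probe sets, 41091 are listed with 1 gene symbol, 1801 with several and 11721 with none; symbols were updated by Entrez ID, and the probe set with the highest mean stood for each of 19775 genes.

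Limma 3.58.1 (R 4.3.3) fitted 8 group means, with empirical Bayes moderation and Benjamini-Hochberg adjustment over all genes of each of 17 comparisons. The members and lists were chosen with earlier results of these data known. By rule, values in every array are given for the 6 sterol enzymes, 3 sensing genes and 4 fatty acid genes called in most comparisons and for genes whose probe sets disagree in sign; of other lists, up to 4 called genes with the largest difference at days 3 and 6 are named. Groups share replicate numbers: over all genes, deviations of same-numbered arrays from their group means correlated at over 0.1 in every pair in 8 of 14 comparisons (EZH2i against DMSO at days 1, 3 and 6, EZH2i day 3 against 2 and day 6 against 3, DMSO day 2 against 1, day 3 against 1 and day 6 against 3), and the lowest elsewhere was -0.035. For those 8, calls that change with the replicate number as a block over all groups stand beside the result. The script was tested on simulated data. Promoter sequences are RefSeq's. Probe sets ending in s_at or x_at may read related transcripts; they stand for ACAT2, ACLY, ACSS2, DHCR7, EBP, FADS2, FASN, HSD17B7, IDI1, MVD, PMVK, SC5D, SCD and TM7SF2. The 3 arrays per group limit the precision. Alternatives were averaging all probe sets of a gene, leaving out the dimmest 40 percent of genes, subtracting array medians, a replicate block, fitting only the groups compared, a trend with robust moderation, and leaving out each array or replicate number.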

Additional observations from a re-analysis of the deposited data

Results flagged for a closer look

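The inhibitor effect at day 6 differed from that at day 1 for 19 of the 29 genes, tested by limma as an interaction over all arrays, with p adjusted over all genes. Among sterol enzymes the day 6 difference minus the day 1 difference was -1.47 for DHCR7, -1.45 for FDPS, -1.40 for EBP, -1.28 for ACAT2, -1.22 for HMGCS1, -0.92 for SQLE, -0.77 for NSDHL, -0.62 for IDI1 (-0.175 with its probe sets averaged, adjusted p = 0.21), -0.52 for PMVK and -0.47 for HSD17B7. Among fatty acid genes it was -1.86 for FASN, -1.60 for ELOVL6, -1.43 for SCD, -0.81 for FADS2, -0.59 for ACACA and -0.57 for ACLY. The sensing genes divided, with -1.20 for SREBF1, -1.11 for INSIG1 and 0.56 for INSIG2, the last with an adjusted p of 0.046 that was lost without any of 7 single arrays. Samples far from their group were not looked for by test, because every group holds 3 arrays.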

How the results depend on the processing

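No single-gene difference that was called in the main fit or in an alternative changed direction under the alternatives run. Changes of sign in differences called in neither were not counted. The counts that moved by more than 1.5 times were the genes lower in EZH2i at day 3 (5 with a replicate block, against 3), those above day 1 in EZH2i at day 6 (4 when all probe sets of a gene were averaged, against 7) and those that rose by day 3 in DMSO (5 when only the groups compared were fitted, against 14). With probe sets averaged the median change in DMSO was 0.284 by day 3 and 0.399 by day 6, against 0.45 and 0.51. Leaving out single arrays or a replicate number gave 0 to 2 genes lower at day 3 and 18 to 20 at day 6 for EZH2i minus DMSO, and 15 to 18 for the day 6 interaction. In EZH2i it gave 5 to 16 higher by day 3, 3 to 7 higher and 5 to 11 lower by day 6, and 13 to 19 lower between days 3 and 6. In DMSO it gave 3 to 13 higher by day 3 and 3 to 14 by day 6, where the lowest counts came without replicate 2 or replicate 3. The median difference over the genes ranged from -0.137 to -0.025 at day 3, -0.673 to -0.615 at day 6 and -0.647 to -0.576 for the interaction. Within EZH2i it ranged from 0.298 to 0.413 by day 3, -0.163 to -0.111 by day 6 and -0.521 to -0.42 between days 3 and 6, and within DMSO from 0.426 to 0.514 by day 3 and 0.518 to 0.548 by day 6. Where same-numbered arrays did not pass as pairs, the replicate block gave 21 genes that rose in DMSO by day 6, and in EZH2i 17 higher by day 3 and 7 higher and 12 lower by day 6; it ended no call of a member in any comparison. Of the single-gene results, 7761 kept their side of the threshold, 348 lost it and 81 gained it. The causes were not tested.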
